A study of Rattus norvegicus with 26 samples.

Results

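Transferrin and complement C3 are 2 plasma proteins made by the liver, and their RNA was followed here through all 26 libraries of a study of rat hepatocytes transplanted as fetal cells into adult liver. The genes were taken by identifier, ENSRNOG00000030625 for transferrin and ENSRNOG00000046834 for C3, and both were found among the 32552 deposited features in each library. The 16 libraries made before transplantation comprise 4 of adult hepatocytes and 4 of each of the immunopurified fetal sorts, which are named LAP+, LAP+/OC2- and LAP+/OC2+ in the labels. After transplantation, laser capture took fetal-derived colonies and the adult host tissue around them from the same 5 animals, numbered 242, 243, 246, 248 and 249. The labels do not spell out LAP or OC2, and the sources used here do not give the strain, the age, the sex or the preparation of the hosts. Nothing in the labels says whether equal replicate numbers before transplantation mark 1 animal or litter.

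Transferrin is the iron carrier of blood plasma. Hepatocytes secrete it, it binds ferric iron, and cells take up the loaded protein through the transferrin receptor. C3 is the protein on which the classical, lectin and alternative routes of complement activation meet. A convertase splits it into a small peptide that draws in inflammatory cells and a large fragment that bonds to surfaces and marks them for uptake. The liver supplies most of the C3 in plasma and raises its output in the acute phase of inflammation, and macrophages also make it.

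The transferrin feature lies on chromosome 8 from 111673547 to 111721333 on the minus strand, and the C3 feature on chromosome 9 from 9721105 to 9747167 on the plus strand (coordinates of the deposited files, whose build the sources used here do not name). C3 has 41 exon blocks with 5188 nt of exon, over a span of 26063 nt, and the RefSeq C3 gene of the GRCr8 build spans 26928 nt. The transferrin feature is longer than its gene. Its 24 exon blocks hold 3271 nt over a span of 47787 nt, whereas the RefSeq Tf gene spans 26710 nt. The 17 blocks nearest the 5′ end span 26768 nt and hold 2354 nt. The other 7 blocks, from 111673547 to 111687514, span 13968 nt and hold 917 nt. In RefSeq the gene next to Tf on that side is Srprb, which encodes a subunit of the receptor for the signal recognition particle and spans 13948 nt. No other deposited feature overlaps the transferrin feature. Reads from those 7 blocks cannot be separated from transferrin reads in the deposited counts, and levels per exon length would be 1.39 times as high if no read fell on them.

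**Figure D1:**
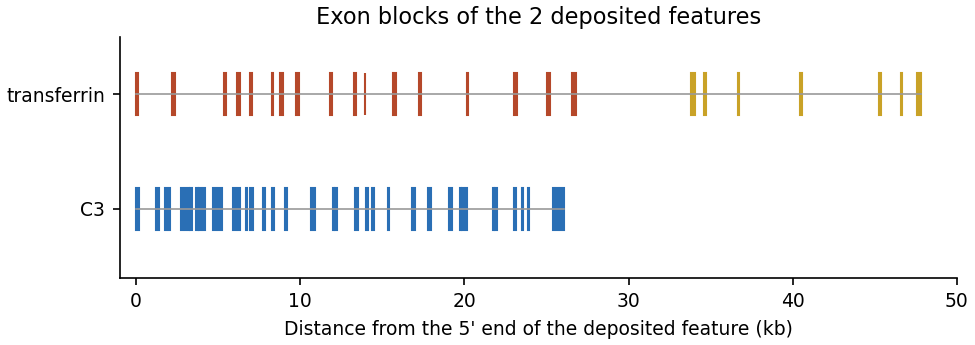
Exon blocks of the transferrin and C3 features, drawn by distance in kb from each feature's 5′ end, with lines for the span between blocks. The first 17 transferrin blocks (red) end near 27 kb, the other 7 (yellow) lie farther downstream, and the 41 C3 blocks (blue) fill a span of 26063 nt.

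The stretches upstream of both genes are shown because both genes were lower in the same group of cells in the comparisons that follow. They run from 250 to 31 bases before the annotated start, on the strand of the gene, and come from RefSeq (GRCr8): chr8:112695407-112695626 for Tf and chr9:2201370-2201589 for C3, both on the minus strand of that build. Capitals mark matches on either strand to TATAAA (the TATA box), TTGCG (an arm of a palindrome bound by C/EBP factors) and AGGTCA (a site that nuclear receptors often bind in pairs).
Tf: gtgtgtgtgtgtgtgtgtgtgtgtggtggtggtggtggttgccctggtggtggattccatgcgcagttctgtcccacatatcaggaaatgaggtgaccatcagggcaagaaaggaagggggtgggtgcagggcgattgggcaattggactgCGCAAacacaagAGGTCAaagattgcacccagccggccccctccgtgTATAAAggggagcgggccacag
C3: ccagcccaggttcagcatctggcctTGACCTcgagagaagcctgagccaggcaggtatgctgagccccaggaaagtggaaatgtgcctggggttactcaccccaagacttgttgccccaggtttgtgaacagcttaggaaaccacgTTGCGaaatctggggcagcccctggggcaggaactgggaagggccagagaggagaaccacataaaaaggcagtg
The motifs were chosen with these sequences in view. Each gene holds 1 match to the C/EBP letters, starting 99 bases before the start in Tf and 104 bases before it in C3. Of 33469 RefSeq promoters cut to the same stretch, 13.1% hold them. The nuclear receptor site occurs 87 bases before the start of Tf and 225 bases before that of C3, and in 12.3% of the promoters. The TATA box begins 52 bases before the start of Tf, is found in 11.1% of the promoters, and has no match in this stretch of C3. Only exact letters were counted, and bases nearer to the start than 31 were not searched, so a TATA box there would be missed. No match here overlaps another. A match describes letters and not a site in use.

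Libraries held 7871347 to 16874438 counts, and each of the 2 genes took 2887 to 963447 of them, so that counting error was small beside the spread between libraries. LAP+/OC2+ libraries stood apart. Mitochondrial features took 38.9 to 78.6% of their counts, against 4.11 to 6.42% in LAP+ cells, which left them 1917734 to 5045098 nuclear counts. Levels are given as CPM, read counts divided by library size and scaled by the TMM method within each stage, and differences are on the log2 scale. The stages used different library kits and materials, so no level was compared between cells and captured tissue. The file identifiers are not paired with gene symbols in the tables used here (0 of 47357 RefSeq entries carry one). The other genes of iron handling and complement, and the markers of hepatocytes and of other cell types, could therefore not be looked up, and the part of other cell types in any difference was not tested.

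In adult hepatocytes transferrin was among the most abundant nuclear RNAs. Its level was 42086, 39137, 38778 and 40976 CPM in libraries 1 to 4, a mean of 40244 ± 1560 CPM (SD, n = 4), which was 4.13 ± 0.13% of nuclear counts. The 4 libraries lay close together, and in counts per exon length transferrin ranked 3 or 4 among nuclear features of at least 200 nt. C3 stood at 12988, 15073, 12055 and 13722 CPM, a mean of 13459 ± 1274 CPM (SD, n = 4). Per exon length it ranked from 21 to 28 in these libraries.

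LAP+ and LAP+/OC2- fetal cells held less C3 than adult cells, while no difference in transferrin passed the test. In bulk RNA, fewer cells of a kind and less RNA of a gene per cell cannot be told apart. C3 was 8009, 4726, 6924 and 7147 CPM in LAP+ libraries 1 to 4, a mean of 6701 ± 1398 CPM (SD, n = 4), or 49.8% of the adult mean. Every LAP+ library lay below every adult library. How many other genes were separated in this way was not counted. The log2 difference was -1.01 (SE 0.26, edgeR adjusted p = 0.0033), in a comparison in which 60.3% of 13818 genes passed the same test in either direction and 28.5% were called lower. The split of 4387 higher and 3943 lower genes became 5578 and 2025 with library totals and no scaling factors. The C3 difference became -0.55 with these totals (edgeR adjusted p = 0.0079) and -0.59 with unscaled nuclear totals (edgeR adjusted p = 0.045). In LAP+/OC2- cells C3 was 4445, 7592, 8284 and 7554 CPM in libraries 1, 3, 4 and 5, again all below the adult libraries. The log2 difference of C3 from adult was -0.95 (SE 0.26, edgeR adjusted p = 0.0049), where 59.3% of genes passed and 28.4% were lower (4266 higher and 3926 lower, or 5171 and 2131 with library totals). Unscaled library and nuclear totals gave C3 differences of -0.55 and -0.60 in LAP+/OC2- cells (edgeR adjusted p = 0.0083 and 0.046). The LAP+ and LAP+/OC2- comparisons share the adult libraries. Of the 50 nuclear genes with most counts in adult hepatocytes, 38 passed as lower in LAP+ than in adult cells and 3 as higher. The median over this list was -2.06 (log2), with 34 genes below C3 and 41 below transferrin. The list was picked by adult counts, so it leans to genes high in adult cells.

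Transferrin stood at 36772, 21986, 34075 and 33257 CPM in LAP+ libraries 1 to 4, a mean of 31522 ± 6532 CPM (SD, n = 4). All 4 values lay below the adult range, but the log2 difference of -0.35 (SE 0.30, edgeR adjusted p = 0.33) did not pass, with a 95% interval from -0.99 to 0.29. The share of all genes so separated was not counted. The SE came from the fit of all 16 libraries, LAP+/OC2+ included. A fit of LAP+ and adult libraries alone gave -0.32 (SE 0.18, edgeR adjusted p = 0.14). In LAP+/OC2- cells the level was 20303, 30605, 36255 and 34740 CPM, with a log2 difference of -0.40 (SE 0.30, edgeR adjusted p = 0.27, 95% interval -1.04 to 0.24). LAP+ library 2 and LAP+/OC2- library 1 were the lowest of their groups for both genes. The direction for transferrin depended on scaling. As a share of nuclear counts it averaged 4.30 ± 0.67% for LAP+ (SD, n = 4) and 3.99 ± 0.69% for LAP+/OC2- (SD, n = 4), and both groups overlapped the adult share. With library totals and no scaling factors the LAP+ difference was 0.10 instead of -0.35, while the median of all genes moved from 0.06 to 0.53. Relative to that median the transferrin difference was between -0.44 and -0.41 under the 4 scalings tried. Scaling moves all genes of a comparison nearly alike, so values relative to the median could hardly vary and do not test the scaling. For C3 in LAP+ cells the share of nuclear counts was 0.914 ± 0.147%, against 1.38 ± 0.12% in adult cells (SD, n = 4 each), with no overlap. How many other genes were separated by this share was not counted. Relative to the median of all genes the C3 difference lay between -1.09 and -1.07.

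**Figure D2:**
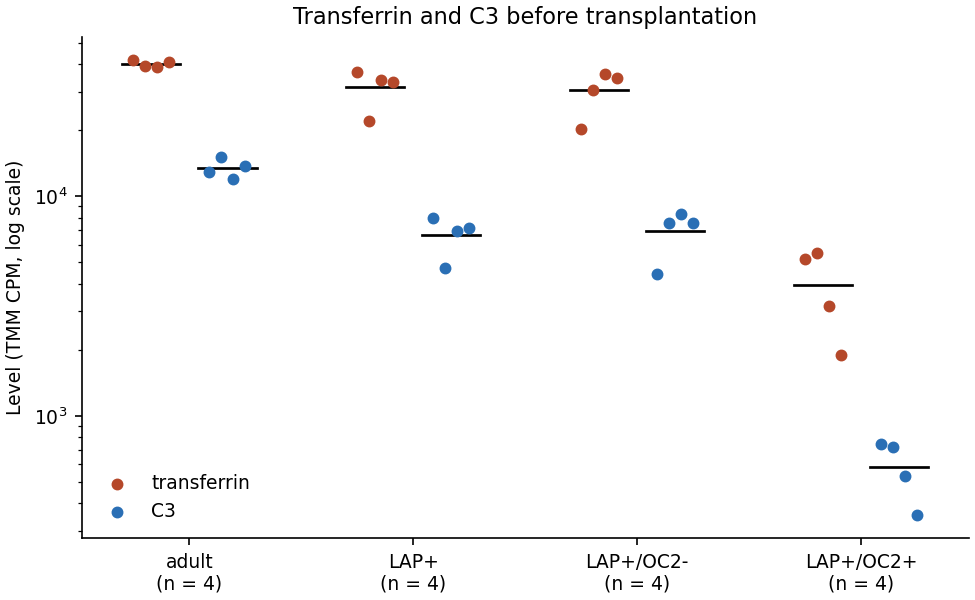
Levels of transferrin (red) and C3 (blue) in the 16 libraries before transplantation, as TMM CPM on a log axis, with 1 point per library and black lines at group means (n = 4 each). Both genes in the LAP+ and LAP+/OC2- sorts lie below all adult values, though only the C3 differences passed the test there. Both genes are lowest in LAP+/OC2+ libraries.

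LAP+/OC2+ cells had the lowest levels of both genes among the 4 groups before transplantation. Transferrin was 5191, 5509, 3182 and 1901 CPM in libraries 1 to 4, a mean of 3946 ± 1708 CPM (SD, n = 4). That was 9.81% of the adult mean in scaled CPM and 17.9% of it as a share of nuclear counts. C3 was 745, 720, 530 and 352 CPM, a mean of 586 ± 184 CPM (SD, n = 4). That was 4.36% of the adult mean in scaled CPM and 7.95% of it as a share of nuclear counts. No LAP+/OC2+ library reached the range of another group for either gene, and the share of all genes so separated was not counted. Against adult cells the log2 difference was -3.35 for transferrin (SE 0.33, edgeR adjusted p = 7.8e-08) and -4.52 for C3 (SE 0.30, edgeR adjusted p = 5.6e-10). In this comparison 77.5% of genes passed, and 38.6% were called lower. The size depended on scaling, while both calls remained. Unscaled library totals gave -4.03 for transferrin and -5.14 for C3, and unscaled nuclear totals gave -2.48 and -3.65. The split of all genes moved too, from 5369 higher and 5338 lower to 3868 and 6065 with library totals and to 7889 and 3388 with nuclear totals. Relative to the median of all genes, transferrin lay between -3.54 and -3.32 and C3 between -4.66 and -4.49 under the 4 scalings. Most of the effect of scaling drops out of that measure by construction.

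Both genes were also lower in LAP+/OC2+ than in LAP+/OC2- cells, by log2 differences of -2.95 for transferrin (SE 0.33, edgeR adjusted p = 6.0e-07) and -3.57 for C3 (SE 0.29, edgeR adjusted p = 1.7e-08), where 67.5% of genes passed and 36.6% were lower. Against LAP+ cells the differences were -3.00 (SE 0.33, edgeR adjusted p = 5.2e-07) and -3.51 (SE 0.29, edgeR adjusted p = 1.9e-08), where 67.8% passed and 35.9% were lower. Against LAP+/OC2- cells, transferrin and C3 differed by -4.02 and -4.58 with unscaled library totals and by -2.43 and -3.06 with unscaled nuclear totals. Against LAP+ cells the same totals gave -4.13 and -4.58, and -2.54 and -3.06. The genes called in the first of these comparisons were 4261 higher and 5062 lower, or 1764 and 7592 with library totals and 6027 and 3268 with nuclear totals. In the second they were 4417 and 4956, or 1608 and 7565 and then 6074 and 3410. Other abundant genes were lower as well. Of the 50 nuclear genes with most counts in adult hepatocytes, which include both genes, 43 passed as lower in LAP+/OC2+ than in LAP+/OC2- cells and 0 as higher. The median over the list was -3.03 (log2). Transferrin lay near the middle of this list, with 26 genes below it, and C3 had 12 below it. Against LAP+ cells 41 of the 50 passed as lower and 6 as higher, up to 10.2 on the log2 scale, with a median of -3.02. There 25 genes lay below transferrin and 14 below C3.

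The spread of these levels within LAP+/OC2+ cells depended on what the counts were divided by. The mitochondrial share was 78.6, 73.7, 57.6 and 38.9% in libraries 1 to 4. As a share of nuclear counts, which leave out mitochondrial counts, transferrin was 1.05, 0.996, 0.585 and 0.328% and C3 was 0.151, 0.130, 0.0974 and 0.0606%. These values fell in the order of the mitochondrial share. Per library total, which includes mitochondrial counts, transferrin was 2244, 2615, 2479 and 2001 and C3 was 322, 342, 413 and 370 in CPM without scaling. The values per library total did not follow that order. Either total is tied to the mitochondrial share. With mitochondrial features left out and TMM factors recomputed, the log2 differences from adult cells were -3.36 and -4.53. The part of the mitochondrial share in the differences was not tested.

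No difference between LAP+ and LAP+/OC2- cells passed the test for either gene. The log2 difference of LAP+/OC2- from LAP+ cells was -0.05 for transferrin (95% interval -0.69 to 0.59) and 0.06 for C3 (95% interval -0.49 to 0.60), with an edgeR adjusted p of 1.0 for both, in a comparison where 0.391% of genes passed. The intervals allow a difference of either sign. From high to low in scaled CPM, transferrin levels ran from adult over LAP+ and LAP+/OC2- to LAP+/OC2+ cells. Neighbours in that order were told apart by the test only at the last step. C3 ran from adult over LAP+/OC2- and LAP+ to LAP+/OC2+ cells, and only the middle pair was not told apart by the test. As a share of nuclear counts the order of that pair turned, with C3 means of 0.914% for LAP+ and 0.913% for LAP+/OC2-. Averaged over the 3 sorts, the fetal difference from adult was -1.37 for transferrin (SE 0.23, edgeR adjusted p = 5.0e-05) and -2.16 for C3 (SE 0.19, edgeR adjusted p = 3.2e-08), where 72.4% of genes passed and 35.3% were lower (5128 higher and 4882 lower, or 7732 and 3121 with unscaled nuclear totals). With those totals the fetal differences were -0.82 and -1.61. Without the LAP+/OC2+ libraries these became -0.37 (edgeR adjusted p = 0.073) and -0.97 (edgeR adjusted p = 3.1e-04).

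**Figure D3:**
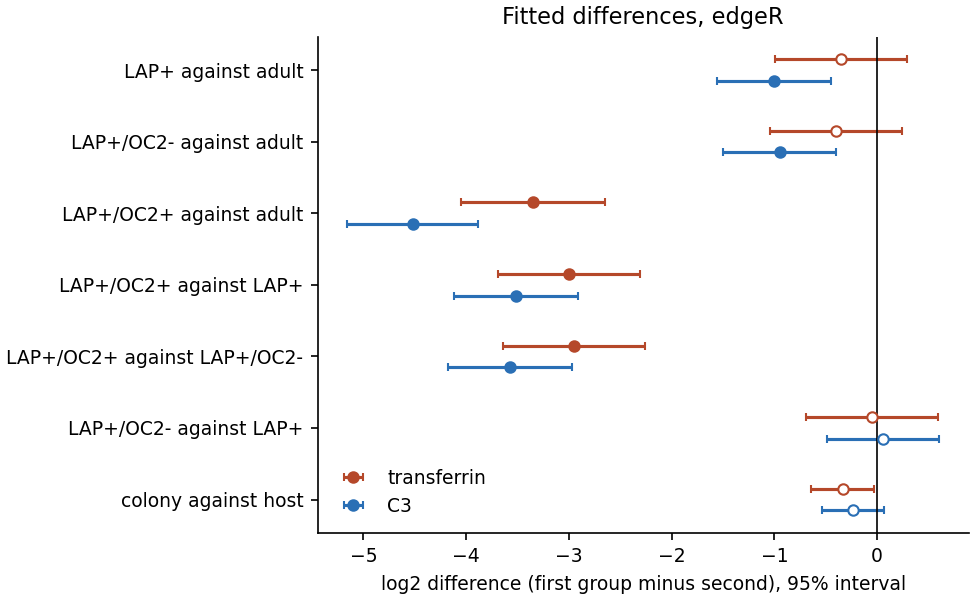
Fitted log2 differences of transferrin (red) and C3 (blue) for 7 comparisons, with 95% intervals from the edgeR fit. Filled points passed an adjusted p of 0.05. Comparisons with LAP+/OC2+ cells lie between -2.95 and -4.52. Colony against host lies at -0.33 for transferrin and -0.24 for C3, and neither passed.

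The balance of the 2 RNAs shifted between the groups, a measure that needs no scaling between libraries. The ratio of transferrin to C3, each in counts per exon length, was 5.14, 4.12, 5.10 and 4.74 in adult libraries 1 to 4. In LAP+ libraries it was 7.28, 7.38, 7.81 and 7.38, and in LAP+/OC2- libraries 7.25, 6.39, 6.94 and 7.29. LAP+/OC2+ libraries had ratios of 11.1, 12.1, 9.53 and 8.58. Adult ratios were the lowest and LAP+/OC2+ ratios the highest of the groups before transplantation, with no overlap between either of them and the rest.

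Against adult cells the ratio was 1.57-fold higher in LAP+, 1.46-fold higher in LAP+/OC2- and 2.15-fold higher in LAP+/OC2+ cells. The LAP+/OC2+ ratio exceeded that of LAP+/OC2- cells 1.47-fold and that of LAP+ cells 1.37-fold. Each of these 5 differences had a 2-sided exact permutation p of 0.029, the smallest that 4 against 4 libraries allow, and an adjusted p of 0.040 over 7 comparisons. C3 was thus lower relative to transferrin in each fetal sort than in adult cells. The LAP+/OC2- and LAP+ ratios overlapped and differed by -0.10 on the log2 scale (2-sided exact permutation p = 0.057, adjusted p = 0.067). Reads of the 7 added exon blocks enter the transferrin side of every ratio.

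**Figure D4:**
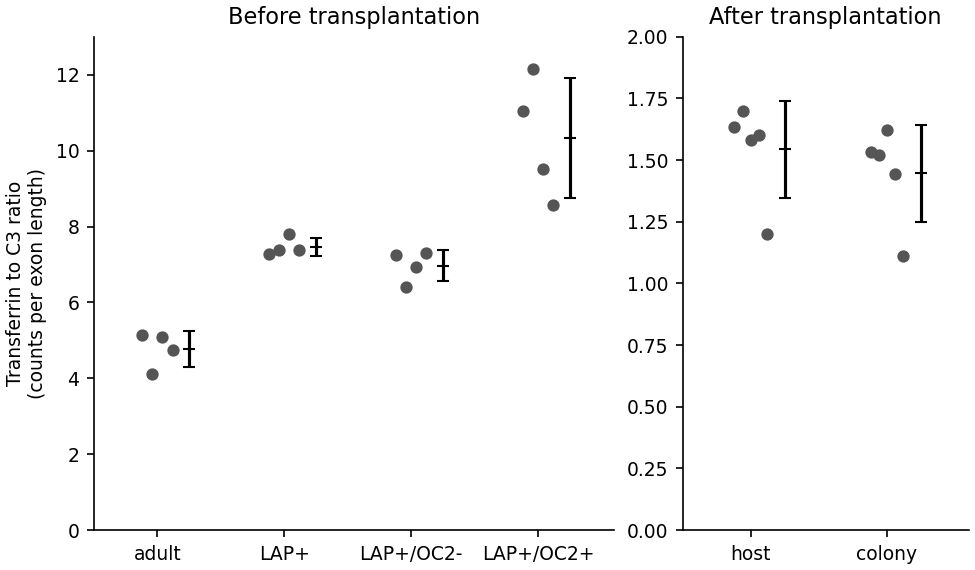
Ratio of transferrin to C3, in counts per exon length, with 1 point per library and the mean ± SD beside it (n = 4 per group before and 5 per group after transplantation; the panels have separate axes, both from 0). Adult libraries lie between 4.12 and 5.14, LAP+/OC2+ libraries between 8.58 and 12.1, and host and colony overlap.

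In captured tissue after transplantation both genes were again among the most abundant, and the difference between colony and host passed the test for neither. Transferrin in host tissue was 58515, 57524, 44489, 63922 and 56851 CPM in animals 242, 243, 246, 248 and 249, a mean of 56260 ± 7147 CPM (SD, n = 5). In the colonies of the same animals it was 43245, 44201, 47503, 50249 and 37507 CPM, a mean of 44541 ± 4812 CPM (SD, n = 5). The colony value was lower in 4 of 5 animals, and animal 246 went the other way. With the animal as a block, the log2 difference was -0.33 (SE 0.15, edgeR adjusted p = 0.22, 95% interval -0.64 to -0.03 before adjustment), in a comparison in which 1.17% of 22303 genes passed.

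C3 was 56828, 53641, 44643, 63236 and 75200 CPM in host tissue of these animals, a mean of 58710 ± 11396 CPM (SD, n = 5). In colonies it was 44770, 46155, 46403, 55181 and 53555 CPM, a mean of 49213 ± 4782 CPM (SD, n = 5). Again 4 of 5 animals had the lower value in the colony and animal 246 the higher one. The log2 difference was -0.24 (SE 0.15, edgeR adjusted p = 0.38, 95% interval -0.54 to 0.06). Of the 50 genes with most counts in adult hepatocytes, 48 were on the negative side and 3 passed the test there. Their median was -0.38, so that transferrin and C3 lay above the median of that list. All genes tested had a median of 0.11.

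These values depended on animal 246 and on the scaling. Without that animal the differences were -0.44 for transferrin (edgeR adjusted p = 8.3e-04) and -0.31 for C3 (edgeR adjusted p = 0.014), and limma-voom called both with all animals. With library totals and no scaling factors, transferrin differed by -0.081 and C3 by 0.014, while the median of all genes moved to 0.36. Relative to that median the difference was -0.44 for transferrin and -0.34 for C3 under each of the 4 scalings. That measure hardly changes with scaling by construction, so it does not show that the differences are independent of scaling.

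**Figure D5:**
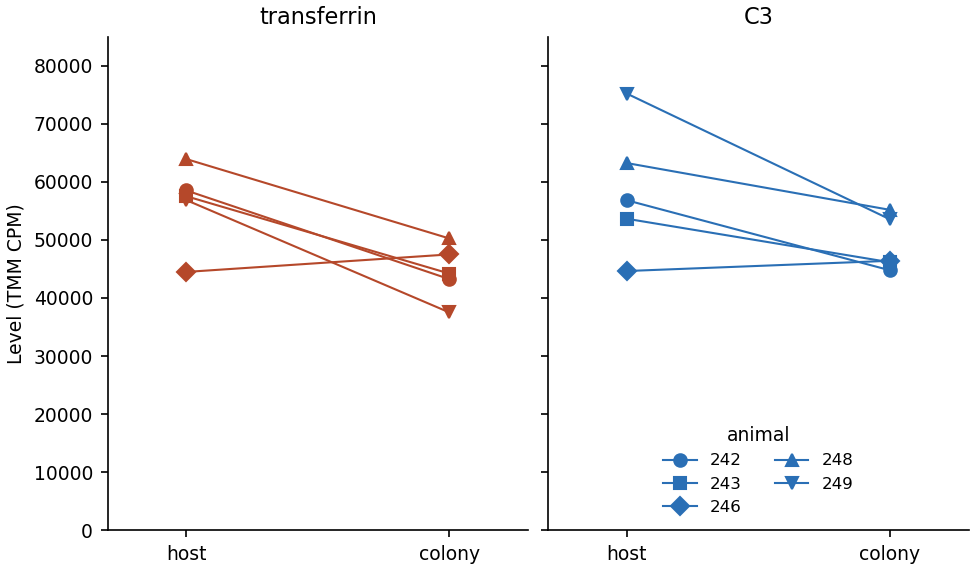
Transferrin and C3 in host tissue and in the fetal-derived colony of the same animal, in TMM CPM, with a line for each of the 5 animals. The colony lies lower in animals 242, 243, 248 and 249 and slightly higher in animal 246 for both genes.

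The ratio of transferrin to C3 did not separate colony from host. In hosts it was 1.63, 1.70, 1.58, 1.60 and 1.20 in animals 242, 243, 246, 248 and 249, and in their colonies 1.53, 1.52, 1.62, 1.44 and 1.11. The mean log2 difference of the ratio was -0.10, negative in 4 of 5 animals (2-sided exact sign-flip permutation p = 0.13 and adjusted p = 0.13, where 5 pairs cannot go below 0.063). Animal 249 had the lowest ratio in both tissues. Per exon length, transferrin ranked 3 in all colonies and 3 or 4 in hosts, and C3 ranked 4 in all colonies and from 4 to 7 in hosts.

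Whether the fetal difference changed after transplantation was tested as the colony difference minus the LAP+ difference. This fit had no block, so the sharing of animals by colony and host was not used. For transferrin this was 0.02 (SE 0.36, edgeR adjusted p = 1.0, 95% interval -0.70 to 0.75), and its sign turned in 15 of the 21 fits without 1 library or animal. For C3 it was 0.76 (SE 0.33, edgeR adjusted p = 0.087, 95% interval 0.08 to 1.44 before adjustment), in a fit where 29.1% of 20785 genes passed. The C3 difference was thus -1.01 for LAP+ against adult cells and -0.24 for colony against host. The change between them did not pass in edgeR. DESeq2 called it at 0.78 (adjusted p = 0.027), and limma-voom at 0.81 (adjusted p = 0.015). The stages differ in kit and material, and the titles of the colony libraries name no sort. A change with transplantation cannot be told apart from a change with these.

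The genes most like each of the 2 were sought by the Pearson correlation of log2(CPM + 1) over the 16 libraries before transplantation, among 7392 other genes averaging 10 CPM or more. Since the libraries fall into groups, this measures a shared order of groups. Closest to transferrin were ENSRNOG00000003566 (chromosome 10, 96639924 to 96653938, r = 0.999) and ENSRNOG00000010935 (chromosome 15, 57290849 to 57339760, r = 0.998). The first stood at 4063 CPM in adult, 2968 CPM in LAP+ and 234 CPM in LAP+/OC2+ cells on average. Over the 10 captured libraries their r with transferrin was 0.96 and 0.93. Closest to C3 were ENSRNOG00000013704 (chromosome 9, 74124016 to 74236274) and ENSRNOG00000017689 (chromosome 16, 6992062 to 7007287), both with r = 0.998, and with r of 0.43 and 0.85 over the captured libraries. C3 itself came at place 67 among the genes most like transferrin, with r = 0.99 before and 0.65 after transplantation.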

How the data were processed

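RNA was sequenced from 16 libraries of isolated rat hepatocytes and 10 of laser-captured liver. Per the labels' protocols, cell RNA went into the NEBNext Ultra kit and captured RNA into a SMARTer Stranded Total RNA kit for low input. The authors deposited unnormalised whole-number counts for each feature, per the file headers. Tools named in the submitters' processing notes are STAR 2.5.2b, Subread 1.5.2 with featureCounts, Trimmomatic 0.36 and bcl2fastq 2.17. Neither genome build nor strand setting is given in the sources used here.

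The main test was that of edgeR 4.0.16 under R 4.3.3 (TMM, filterByExpr, robust quasi-likelihood F test, Benjamini-Hochberg adjustment over all genes tested, adjusted p under 0.05). Groups before transplantation were fitted in 1 model of 16 libraries, colony and host on 10 with the animal as a block. The difference of differences was fitted on 26 without a block. DESeq2 1.42.0 and limma 3.58.1 were alternatives. Ratios were tested in scipy 1.17.1.

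Both genes, the lists and the tests were chosen with earlier results of these data known. Genes named besides them are the 2 most correlated with each. Colony and host share animals by their labels, and their deviations correlated between -0.21 and 0.29 within animals. Each of 44 replicate pairs differed by more than sampling noise (chi-square of at least 5.21 per degree of freedom). Whether replicates were separate animals is not stated before transplantation, and p-values there measure the spread between these libraries.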

Additional observations from a re-analysis of the deposited data

Results flagged for a closer look

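The ratio of transferrin to C3 in the host tissue of animal 249 was 1.20 in counts per exon length, far below the other 4 hosts, which lay between 1.58 and 1.70. It was marked because its gap to the nearest host was large beside the range of the group. The colony of the same animal was also the lowest of its group, at 1.11. C3 in this host was the highest of the 5, at 75200 CPM, while transferrin was at 56851 CPM, inside the range of the others. Of 18 sets of values examined in this way it was the 1 that stood out, and chance marks about 1 in 20.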

How the results depend on the processing

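The calls of C3 and transferrin in LAP+/OC2+ comparisons and of C3 against adult cells held under RLE factors, other low-count filters, DESeq2, limma-voom, unscaled totals (an alternative added after seeing the data, as were fits of 2 groups alone and without LAP+/OC2+), a replicate block and each left-out library. Scaling turned the sign of uncalled differences. With library totals and with nuclear totals unscaled, respectively, the log2 difference was 0.10 and 0.059 for transferrin in LAP+ against adult, -1.5e-04 and -0.0027 for C3 in LAP+/OC2- against LAP+, 0.014 and 0.019 for C3 in colony against host, and -0.18 and -0.13 for the transferrin difference of differences; the cause was not tested beyond the shift of the all-gene median. Transferrin in LAP+/OC2- against LAP+ was 0.043 with limma-voom. The transferrin fetal mean was -0.37 and no longer called without LAP+/OC2+ libraries. Calls were gained with limma-voom for colony against host (-0.38 for transferrin, -0.27 for C3; adjusted p from 2.3e-04 to 0.40 and from 0.013 to 0.89 over the settings) and for C3 in the difference of differences (0.81, and 0.78 with DESeq2), and with the fetal mean in place of LAP+ there (1.07 and 1.95).

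Deviations of libraries with equal numbers before transplantation correlated from -0.43 to 0.20. Colony and host, which share animals, gave -0.21 to 0.29, so these correlations cannot decide whether equal numbers mark pairs. With the replicate block the ratio differences were 0.65, 1.11 and 0.46 for LAP+, LAP+/OC2+ and LAP+/OC2- against adult, and 0.50 and 0.46 for LAP+/OC2+ against LAP+/OC2- and LAP+, where 3 or 4 pairs cannot pass. Leaving out the block did not change the colony call.

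Leaving out each library or animal gave these ranges. Transferrin ran from -0.19 to 0.10 and C3 from -0.078 to 0.22 in LAP+/OC2- against LAP+, from -0.44 to -0.26 and -0.31 to -0.17 in colony against host, and transferrin from -0.19 to 0.077 in the difference of differences. Ratios ran from 0.58 to 0.69, 1.02 to 1.19 and 0.48 to 0.59 for LAP+, LAP+/OC2+ and LAP+/OC2- against adult, and from 0.47 to 0.64 and 0.37 to 0.54 for LAP+/OC2+ against LAP+/OC2- and LAP+. With 3 libraries in 1 group the adjusted p of 0.05 is out of reach.

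The number of genes called was 54 in LAP+/OC2- against LAP+ and 44 to 98 without 1 library (82 without adult 2, 98 without LAP+ 2, 95 without LAP+ 3), 208 with DESeq2 and 171 with limma-voom. In colony against host it was 262, 6 with the stricter filter, 751 with none, 717 with DESeq2, 3353 with limma-voom, 0 without the block (3483 at an unadjusted p under 0.05), and 5, 130, 2683, 158 and 0 without animal 242, 243, 246, 248 and 249. Unscaled totals moved its split from 126 higher and 136 lower to 214 and 11.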

Other observations

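The feature next to transferrin on the same strand, ENSRNOG00000009434 (chromosome 8, 111727984 to 111777677), was looked at after the values of transferrin were seen. Adult cells held 1490 ± 185 CPM of it (SD, n = 4). The fetal sorts held far less, with 151 ± 63.0 CPM for LAP+ (SD, n = 4), 156 ± 50.4 CPM for LAP+/OC2- (SD, n = 4) and 33.0 ± 4.37 CPM for LAP+/OC2+ (SD, n = 4). LAP+ cells differed from adult cells by -3.30 on the log2 scale for this feature (SE 0.32, edgeR adjusted p = 2.0e-07), against -0.35 for transferrin, which was not called. In that comparison 28.5% of genes were called lower. In captured tissue this feature stood at 1442 ± 237 CPM in hosts and 1104 ± 178 CPM in colonies (SD, n = 5 each), and the difference of -0.39 (SE 0.14, edgeR adjusted p = 0.12) did not pass.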
